A study of Mus musculus with 6 samples.

Results

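The genes of synaptic vesicle release and synaptic scaffolds were read in mouse Neuro2A cells, a neuroblastoma line, across the 6 libraries of an experiment on the circular RNA circCpsf6. The set holds 48 of the 55385 genes in the table, chosen by name: 13 synaptic vesicle proteins, 7 SNARE proteins, 6 regulators of SNARE complexes, 8 active zone and priming genes, 9 postsynaptic scaffold genes and 5 synaptic adhesion genes, without the synaptotagmins. All 48 names were found. In 3 libraries (si-circCpsf6) the cells had received an siRNA that targets circCpsf6, and in the other 3 (si-NC) a control siRNA, each at 100 nM. The labels give the cell type as neuroblast and one culture medium for all libraries. They do not say that replicates were grown separately, so each p-value refers to the scatter of these libraries, which could be technical. Values are FPKM, the fragments of a gene scaled by transcript length and by the mapped fragments of the library, so levels can be compared between genes per length.

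Neurotransmitter is released when a synaptic vesicle fuses with the presynaptic membrane. Fusion is driven by a SNARE complex, in which synaptobrevin (Vamp genes) on the vesicle winds together with syntaxin and SNAP-25 on the plasma membrane. Complexins clamp and assist that complex, NSF and its SNAP adaptors take it apart for reuse, and MUNC13, RIM, Bassoon and Piccolo hold and prime vesicles at the active zone. On the receiving side, PSD-95-like proteins (Dlg genes), Shank and Homer proteins form the postsynaptic scaffold, which neuroligins link to presynaptic neurexins. Several of these genes also act in neuroendocrine secretion, so cells without synapses can express them.

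The host gene Cpsf6 read 14.09, 14.5 and 15.2 FPKM in si-NC and 10.65, 15.06 and 14.5 FPKM in si-circCpsf6, and did not pass the test (limma adjusted p = 0.688). A value per gene does not measure the circle, so the knockdown was not checked here. Between 12671 and 13080 genes reached 1 FPKM in a library. Read counts could not be recovered: low values were whole multiples of a read's worth within 0.1 in at most 28.2% of genes at the best scale, where chance gives 20%, so the counting error of a value is unknown. Of the marker genes, Tubb3 (444 to 592 FPKM in si-NC) and Uchl1 were the 2 highest for neurons. Hand2 (158 to 179 FPKM in si-NC) and Phox2a were the 2 highest for the sympathoadrenal lineage. The lowest reported neuron marker was Rbfox3, at or under 0.04 FPKM in every library. That of the sympathoadrenal lineage was Dbh, at 0.39 to 7.63 FPKM.

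The summed markers of neurons and of the sympathoadrenal lineage did not overlap between the groups. The summed level of 9 neuron markers was 873 to 1062 FPKM in si-NC and 740 to 854 FPKM in si-circCpsf6, and that of 7 sympathoadrenal markers was 269 to 312 and 196 to 224 FPKM. Tubb3 has the largest weight in the neuron sum, at 444 to 592 FPKM in si-NC and 380 to 408 FPKM in si-circCpsf6. Without Tubb3, the neuron sums of the groups overlapped. Uchl1, the next highest, overlapped at 196 to 209 and 165 to 218 FPKM. Of the tested markers, 3 of 8 neuron and 2 of 7 sympathoadrenal ones had a log2 fold change above 0. The share over all tested genes was 47.2%. No single marker of either list passed the test (limma), while 2 of 8 tested neuron markers and 4 of 7 tested sympathoadrenal markers had an unadjusted p under 0.05, against 20.3% of all tested genes. Markers of other cell types were low. The sum of 5 astrocyte markers stayed at or under 1.72 FPKM in every library, with Aqp4 and Slc1a2 listed at 0, and that of 6 microglia and leukocyte markers at or under 0.33 FPKM. The 6 oligodendrocyte markers summed to 3.19 to 4.05 FPKM in si-NC and 1.5 to 3.16 FPKM in si-circCpsf6, with Mag and Olig2 listed at 0. The 4 endothelial markers summed to 0.79 to 1.21 and 1.59 to 3.19 FPKM. The 5 fibroblast markers summed to 0.99 to 7.42 and 1.07 to 6.09 FPKM, highest in replicate 1 of both groups. The part of these differences in the results below was not tested.

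Neuro2A cells expressed part of the release machinery, and in several families (SV2, MUNC13, RIM, neuroligin) 1 paralog held most of the signal of the paralogs among the 48 genes. Of the 48 genes, 34 averaged 1 FPKM or more across the libraries and could be tested, and 22 averaged more than 10 FPKM. The other 14 stayed at or under 0.46 FPKM in every library. Pclo, which encodes the active zone protein Piccolo, and Cadps2, a priming factor of dense-core vesicles, were listed at 0 throughout. A further 6 never passed 0.05 FPKM: Sv2b, Rab27b, Unc13b, Rims1, Cadps and Nlgn1. Rab3b, Homer2, Shank3, Nlgn3, Syn3 and Nrxn3 lay between these and the tested genes, Nrxn3 being the highest at 0.3 to 0.46 FPKM. They are described by their levels alone.

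**Figure D1:**
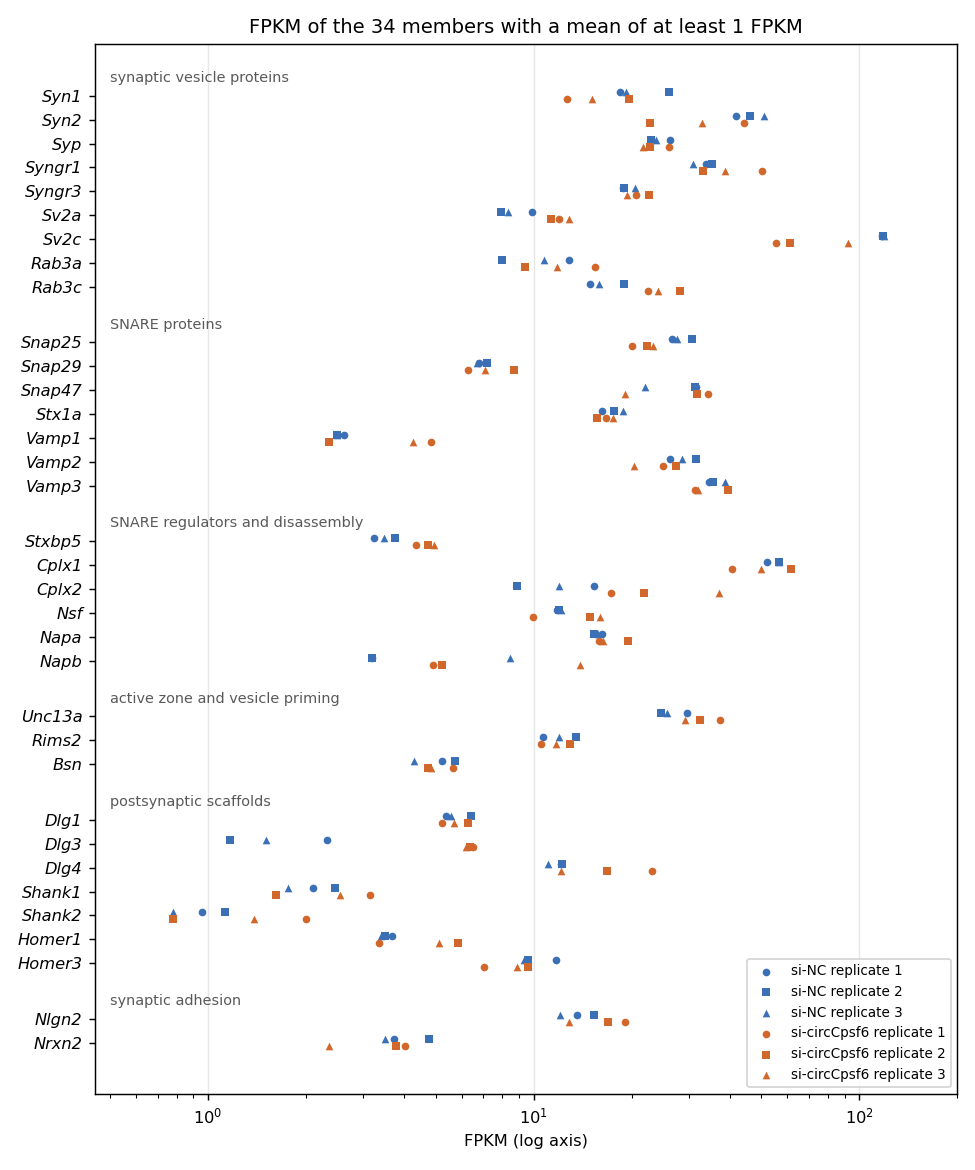
FPKM on a log axis for the 34 tested genes, grouped by role, with 1 point per library (blue si-NC, orange si-circCpsf6, shape by replicate number). Sv2c is the highest gene at 117 to 119 FPKM in si-NC, and the orange points of Dlg3 at 6.21 to 6.53 FPKM lie apart from its blue points at 1.17 to 2.31 FPKM.

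Among 34 tested genes, 1 was called different between the groups, Dlg3, which rose in si-circCpsf6. It is 2.94% of them, against 1.69% of all 12974 tested genes (limma on log2(FPKM + 1), Benjamini-Hochberg adjusted p under 0.05), so the share of calls was close to the background. By direction, 0.902% of all tested genes were called higher and 0.786% lower, and none of the 34 was called lower. At an unadjusted p under 0.05 there were 7 of 34, where 20.3% of all tested genes passed. Of these 5 were higher (background 10.2%) and 2 lower (background 10.1%). The groups did not overlap in 7 of 34 genes (20.6%), against 26.9% of all tested genes. Here too 5 were higher (background 12.8%) and 2 lower (background 14.0%). By the q-values of the authors' deposited table, 3 of the 34 passed 0.05, Dlg3, Cplx2 and Sv2c, against 5.51% of all tested genes, and Sv2c was the 1 gene of these that was lower. The median log2 fold change was 0.11 over these genes and -0.02 over all tested genes, and 20 of 34 were above 0, against 47.2% of all. In a bulk library, fewer cells that express a gene and less RNA per cell cannot be told apart. An exact permutation test of 3 against 3 libraries cannot give a p below 0.1, so single genes were not tested that way.

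**Figure D2:**
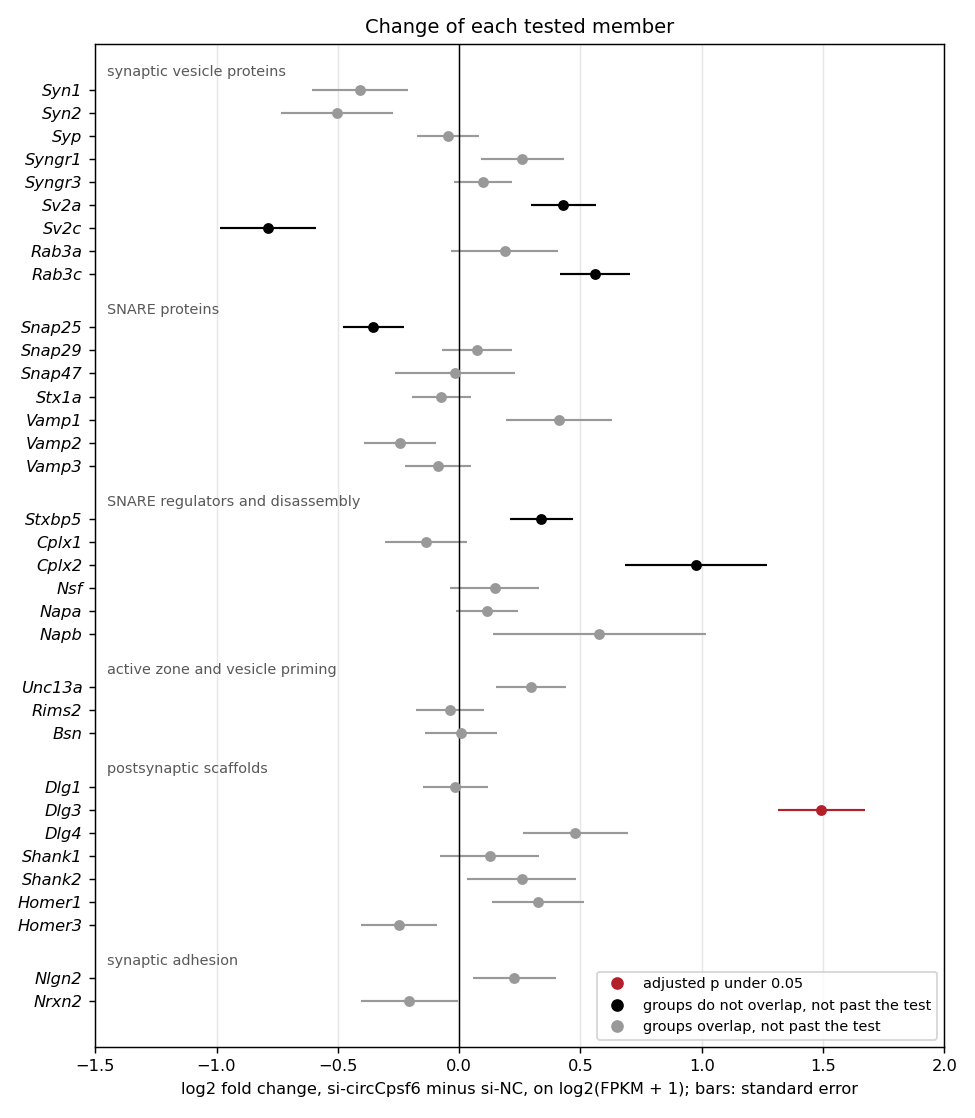
Log2 fold change of each tested gene on log2(FPKM + 1), si-circCpsf6 minus si-NC, with its standard error as a bar, grouped by role. Dlg3 at 1.49 is the only gene past the adjusted test (red), and Sv2c at -0.79 and Cplx2 at 0.98 are the farthest of the 6 genes whose groups did not overlap without passing it (black).

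Dlg3 encodes SAP102, a scaffold protein of the PSD-95 family that binds NMDA receptors and is known from early synapse formation (chromosome X, 100767722 to 100818410 in GRCm38). It read 2.31, 1.17 and 1.51 FPKM in si-NC and 6.53, 6.39 and 6.21 FPKM in si-circCpsf6. The 3 si-circCpsf6 libraries lay close together and all were above the highest si-NC library. The means were 1.66 ± 0.58 and 6.38 ± 0.16 FPKM (SD, n = 3 each), a ratio of 3.83, and the log2 fold change was 1.49 ± 0.18 (SE; limma adjusted p = 0.0227). The call held without si-NC replicate 1 (limma adjusted p = 0.0327) and without si-circCpsf6 replicate 1 (0.0481), and was lost without si-NC replicate 2 (0.055), si-NC replicate 3 (0.118), si-circCpsf6 replicate 2 (0.0649) or si-circCpsf6 replicate 3 (0.0709). Its log2 fold change was 1.355 to 1.66 over these fits. With no filter on low values the call was also lost (limma adjusted p = 0.0869).

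Dlg4 and Dlg1 did not pass the test. Dlg4, which encodes PSD-95 itself, read 12.15, 12.24 and 11.04 FPKM in si-NC and 23.14, 16.82 and 12.16 FPKM in si-circCpsf6 (log2 fold change 0.48 ± 0.22 SE, limma adjusted p = 0.269). Its si-circCpsf6 libraries were spread, and the lowest lay among the si-NC values. Its log2 fold change was 0.26 without si-circCpsf6 replicate 1. Dlg1, which encodes SAP97, a scaffold also found in epithelial cells, read 5.39 to 6.43 FPKM in si-NC and 5.22 to 6.27 FPKM in si-circCpsf6, with overlapping groups. Dlg2, which encodes PSD-93, is not among the 48 genes and was picked out of the other scaffold genes after its values were seen. It read 5.7, 6.83 and 6.72 FPKM in si-NC and 4.32, 4.55 and 5.83 FPKM in si-circCpsf6, and the groups overlapped (log2 fold change -0.34 ± 0.15 SE, limma adjusted p = 0.267). Dlg3 made up 8.62% ± 2.88 of the summed FPKM of Dlg1, Dlg3 and Dlg4, without Dlg2, in si-NC and 22.1% ± 3.57 in si-circCpsf6 (SD, n = 3 each), while the sum was 18.1 to 19.9 FPKM and 24.1 to 34.9 FPKM.

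The Shank genes encode the lower layer of the postsynaptic scaffold and the Homer genes tie it to metabotropic glutamate receptors. Shank1 read 1.76 to 2.45 FPKM in si-NC and 1.62 to 3.14 FPKM in si-circCpsf6, and Shank2 read 0.78 to 1.13 and 0.78 to 2.0 FPKM, both with overlapping groups. Shank3 was under the filter at 0.12 to 0.22 FPKM in si-NC and 0.03 to 0.08 FPKM in si-circCpsf6. Homer3 was the leading Homer gene at 9.35 to 11.7 FPKM in si-NC and 7.01 to 9.57 FPKM in si-circCpsf6. Homer1 read 3.67, 3.5 and 3.39 FPKM in si-NC and 3.34, 5.84 and 5.12 FPKM in si-circCpsf6, with replicate 1 just below the si-NC libraries and the others above them (limma adjusted p = 0.385). Homer1 held 25.6% ± 1.59 of the summed Homer FPKM in si-NC and 35.1% ± 3.06 in si-circCpsf6 (SD, n = 3 each). Of the 7 tested scaffold genes, 5 had a log2 fold change above 0, against 47.2% of all tested genes, and the median was 0.26, against -0.02 over all. The log2 fold change of Shank2 was 0.26, and 0.08 without si-circCpsf6 replicate 1.

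Sv2c was the most abundant of the vesicle protein genes and of all 48. SV2 proteins are transporter-like glycoproteins of synaptic vesicles and secretory granules. Sv2c read 117.48, 118.06 and 119.15 FPKM in si-NC and 55.57, 61.27 and 92.34 FPKM in si-circCpsf6. The si-NC libraries agreed within 2 FPKM, the si-circCpsf6 libraries were all lower, and replicate 3 lay nearest to si-NC. The log2 fold change of -0.79 ± 0.20 (SE, n = 3) did not pass the test (limma adjusted p = 0.089). Sv2a, the form found in most neurons, read 9.91, 7.92 and 8.31 FPKM in si-NC and 11.99, 11.31 and 12.84 FPKM in si-circCpsf6. Its groups did not overlap, in the other direction from Sv2c (log2 fold change 0.43 ± 0.13 SE, limma adjusted p = 0.135). Sv2a made up 6.86% ± 0.8 of the summed SV2 signal in si-NC and 15.2% ± 2.79 in si-circCpsf6 (SD, n = 3 each).

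Rab3 proteins are the small GTPases that bring vesicles to RIM at the active zone. Rab3c read 14.85, 18.89 and 15.84 FPKM in si-NC and 22.39, 28.06 and 24.04 FPKM in si-circCpsf6, with every si-circCpsf6 library above every si-NC library (log2 fold change 0.56 ± 0.15 SE, limma adjusted p = 0.0969). Rab3a, the main form in brain, read 8.01 to 12.87 FPKM in si-NC and 9.38 to 15.38 FPKM in si-circCpsf6, with overlapping groups. The 2 genes varied in opposite ways between libraries, so their sum with Rab3b was even within a group, at 26.6 to 27.8 FPKM in si-NC and 35.9 to 37.9 FPKM in si-circCpsf6.

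Synapsins tether vesicles into the reserve pool. Syn2 read 41.71, 45.99 and 50.84 FPKM in si-NC and 44.14, 22.82 and 32.95 FPKM in si-circCpsf6, and Syn1 read 18.37, 25.93 and 19.21 and then 12.68, 19.54 and 15.06 FPKM. Both overlapped between groups, Syn2 through si-circCpsf6 replicate 1 and Syn1 through si-circCpsf6 replicate 2 (limma adjusted p = 0.273 and 0.298). The log2 fold change of Syn2 was -0.50, and -0.27 without si-circCpsf6 replicate 2. That of Syn1 was -0.41, and -0.26 without si-NC replicate 2. Their sum with Syn3 was 60.4 to 72.3 FPKM in si-NC and 42.6 to 57.1 FPKM in si-circCpsf6. The vesicle membrane proteins synaptophysin and the synaptogyrins overlapped between groups: Syp read 22.93 to 26.2 and 21.71 to 26.0 FPKM, Syngr3 18.73 to 20.47 and 19.29 to 22.58 FPKM, and Syngr1 30.91 to 35.25 and 33.01 to 50.39 FPKM. The 13 vesicle protein genes summed to 294 to 302 FPKM in si-NC and 231 to 269 FPKM in si-circCpsf6, a sum in which Sv2c has the largest weight. Sv2c itself stood at 117 to 119 and 55.6 to 92.3 FPKM. Without Sv2c, the vesicle protein sums of the groups overlapped. Of the 9 tested vesicle protein genes, 5 had a log2 fold change above 0, against 47.2% of all tested genes. Their median was 0.10, against -0.02 over all tested genes.

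**Figure D3:**
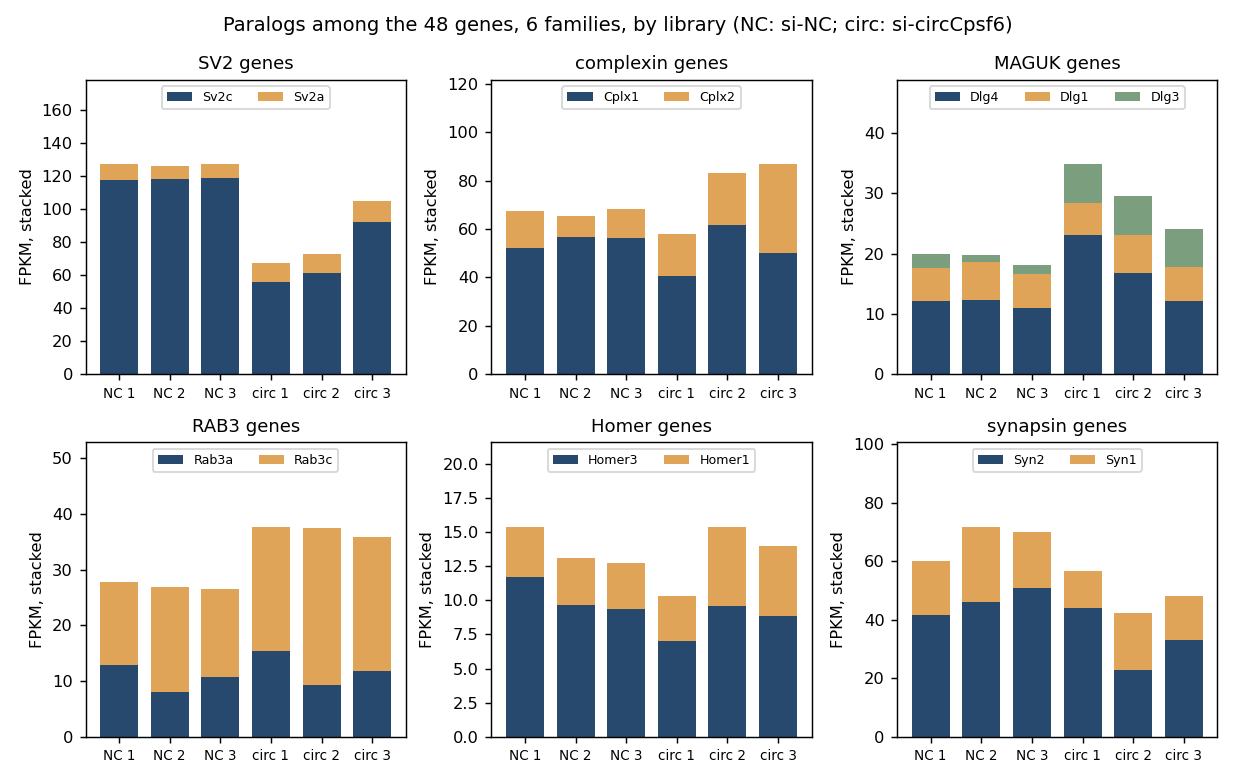
Stacked FPKM of the expressed paralogs among the 48 genes, for 6 families, in each of the 6 libraries (NC is si-NC, circ is si-circCpsf6). The SV2 bars stand at 126 to 127 FPKM in si-NC and 67.6 to 105 FPKM in si-circCpsf6, while the MAGUK bars (Dlg1, Dlg3 and Dlg4, without Dlg2) reach 18.1 to 19.9 FPKM and 24.1 to 34.9 FPKM.

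All 7 SNARE genes were expressed and none passed the test (limma), with 1 at an unadjusted p under 0.05, where 20.3% of all tested genes passed. Snap25, the neuronal plasma membrane SNARE, read 26.64, 30.62 and 27.44 FPKM in si-NC and 20.03, 22.33 and 23.27 FPKM in si-circCpsf6. Its si-circCpsf6 libraries all lay below the si-NC libraries, with a log2 fold change of -0.35 ± 0.12 (SE; limma adjusted p = 0.174). Its partner Stx1a, the syntaxin of the same complex, read 16.17 to 18.83 FPKM in si-NC and 15.69 to 17.46 FPKM in si-circCpsf6, with overlapping groups. Of the vesicle SNAREs, Vamp2, the synaptobrevin of most synapses, read 26.2 to 31.42 FPKM and 20.38 to 27.34 FPKM. Vamp3, the widely expressed cellubrevin, read 34.6 to 38.75 and 31.31 to 39.41 FPKM, and made up 53.8% ± 2.28 and 55.0% ± 3.17 of the summed Vamp1, Vamp2 and Vamp3 signal (SD, n = 3 each). Vamp1 was low, at 2.61, 2.48 and 2.49 FPKM in si-NC and 4.83, 2.35 and 4.27 FPKM in si-circCpsf6, where replicate 2 fell below si-NC and the others above it.

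The SNAP-25 relatives Snap29, which acts in autophagosome fusion, and Snap47 did not separate the groups. Snap29 read 6.69 to 7.17 FPKM in si-NC and 6.29 to 8.69 FPKM in si-circCpsf6. Snap47 read 31.44, 31.31 and 21.89 FPKM in si-NC and 34.27, 31.73 and 19.0 FPKM in si-circCpsf6, lowest in replicate 3 of both groups.

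Complexins bind the assembled SNARE complex, and their balance differed between libraries. Cplx2 read 15.3, 8.91 and 11.92 FPKM in si-NC and 17.29, 21.82 and 37.08 FPKM in si-circCpsf6. The groups did not overlap, though the lowest si-circCpsf6 library was close to the highest si-NC library, and the log2 fold change of 0.98 ± 0.29 (SE) did not pass (limma adjusted p = 0.128). It was 0.68 without si-circCpsf6 replicate 3. Cplx1 read 52.11, 56.61 and 56.51 FPKM in si-NC and 40.64, 61.55 and 49.92 FPKM in si-circCpsf6, on both sides of si-NC. Cplx2 was 17.9% ± 4.57 of the complexin signal in si-NC and 32.9% ± 8.63 in si-circCpsf6 (SD, n = 3 each).

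Stxbp5 encodes tomosyn, which competes with synaptobrevin for syntaxin and restrains fusion. It read 3.23, 3.75 and 3.48 FPKM in si-NC and 4.34, 4.75 and 4.93 FPKM in si-circCpsf6, with no overlap between groups (log2 fold change 0.34 ± 0.13 SE, limma adjusted p = 0.203). Of the genes that take SNARE complexes apart, Nsf read 11.77 to 12.14 FPKM in si-NC and 9.92 to 16.02 FPKM in si-circCpsf6, and Napa, the general SNAP adaptor, 15.32 to 16.22 and 15.9 to 19.46 FPKM. Napb, the adaptor form of brain, read 3.19, 3.19 and 8.43 FPKM in si-NC and 4.92, 5.23 and 13.9 FPKM in si-circCpsf6, highest in replicate 3 of both groups.

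The active zone was represented by Unc13a, Rims2 and Bsn, with the other 5 of 8 genes at or near 0. Unc13a, the MUNC13 that primes vesicles at most excitatory synapses, read 29.47, 24.6 and 25.69 FPKM in si-NC and 37.38, 32.35 and 29.1 FPKM in si-circCpsf6, with the highest si-NC library above the lowest si-circCpsf6 library (limma adjusted p = 0.295). Unc13a held at least 99.88% of the summed Unc13a and Unc13b signal in each library. Rims2, a RIM scaffold that binds Rab3, read 10.69 to 13.52 FPKM in si-NC and 10.51 to 12.88 FPKM in si-circCpsf6. Bsn, which encodes Bassoon, read 4.28 to 5.74 and 4.74 to 5.66 FPKM. Both gave log2 fold changes near 0, at -0.04 ± 0.14 and 0.01 ± 0.15 (SE).

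Of the adhesion genes, Nlgn2, the neuroligin of inhibitory synapses, read 13.59, 15.27 and 12 FPKM in si-NC and 19.06, 16.87 and 12.82 FPKM in si-circCpsf6, with overlapping groups (limma adjusted p = 0.509). Nlgn2 made up 98.2% or more of the summed neuroligin signal in each library. Nrxn2, a presynaptic neurexin, read 3.5 to 4.78 FPKM in si-NC and 2.35 to 4.03 FPKM in si-circCpsf6, lowest in si-circCpsf6 replicate 3 (limma adjusted p = 0.61).

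Of the 34 tested genes, 11 share exon bases with another annotated gene: Syn1, Syn2, Syp, Rab3a, Snap29, Snap47, Unc13a, Bsn, Shank1, Homer3 and Nrxn2. In 10 of them the partner lies on the opposite strand, and since no source used here says how strand was handled, reads of the pair could be shared. Dlg3, Sv2c, Sv2a, Rab3c, Cplx2, Stxbp5 and Snap25 have no such overlap.

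Other genes of the same processes were read from 5 lists. Of 155 genes in them, 103 were tested, 1 passed (limma, against 1.69% of all tested genes) and 23 had an unadjusted p under 0.05, against 20.3% of all tested genes, the share against which each list's count below is read. The gene that passed was Eps15, an adaptor of clathrin-coated vesicles, in the list of vesicle endocytosis genes. Of the 25 tested genes of that list, 1 passed and 7 had an unadjusted p under 0.05 (limma). Their median log2 fold change was 0.09. Eps15 read 17.01, 16.65 and 16.48 FPKM in si-NC and rose to 36.76, 33.73 and 32.27 FPKM in si-circCpsf6 (log2 fold change 0.99 ± 0.12 SE, limma adjusted p = 0.0211). Each group was narrow and they lay far apart. The call held without si-circCpsf6 replicate 1 (limma adjusted p = 0.0342) and was lost without si-NC replicate 1 (0.0707), 2 (0.0629) or 3 (0.123) and without si-circCpsf6 replicate 2 (0.0621) or 3 (0.0586).

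None passed among 18 other vesicle protein and Rab3 cycle genes (limma; 5 at an unadjusted p under 0.05). Rab3ip, which encodes the Rab exchange factor Rabin8, read 11.76, 12.22 and 10.48 FPKM in si-NC and 20.22, 18.76 and 17.27 FPKM in si-circCpsf6 (limma adjusted p = 0.0516). Rph3al, a rabphilin-like Rab effector of granule exocytosis, read 4.5, 5.05 and 4.36 FPKM and then 2.46, 1.29 and 2.16 FPKM (limma adjusted p = 0.0552). The si-circCpsf6 libraries of Rab3ip all lay above si-NC, and those of Rph3al all lay below it.

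Of 28 other SNAREs and SNARE regulators none passed (limma; 2 at an unadjusted p under 0.05), with Gosr2, a Golgi SNARE, at 45.3 ± 7.51 and 25.2 ± 6.19 FPKM (SD, n = 3 each; limma adjusted p = 0.0927). Stxbp2, a syntaxin-binding protein of granule exocytosis, stood at 7.1 ± 0.44 and 5.28 ± 0.92 FPKM (limma adjusted p = 0.211). Of 16 other active zone genes none passed (limma; 5 at an unadjusted p under 0.05). Among them Rims4, a short RIM form, read 3.01 ± 0.05 and 1.54 ± 0.51 FPKM (limma adjusted p = 0.102), and Apba1, the adaptor MINT1, read 4.2 ± 0.14 and 6.57 ± 1.48 FPKM (0.139). Of 16 other scaffold and adhesion genes none passed (limma; 4 at an unadjusted p under 0.05). Of these 16, 12 were above 0, against 47.2% of all tested genes, and the median log2 fold change was 0.24, against -0.02 over all. The adhesion gene Cadm4 read 19.1 ± 0.33 and 27.2 ± 4.87 FPKM and the spine protein gene Sipa1l1 7.71 ± 1.34 and 10.9 ± 0.56 FPKM (limma adjusted p = 0.138 and 0.141). Across the 5 lists the groups did not overlap in 40 of 103 genes (38.8%), 22 higher and 18 lower, against 26.9% of all tested genes.

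**Figure D4:**
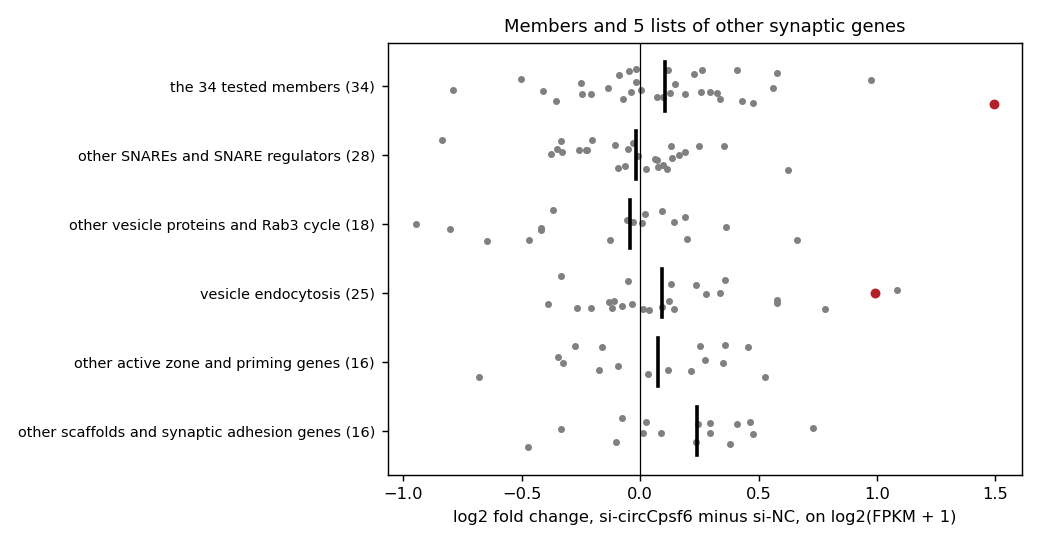
Log2 fold change of each tested gene on log2(FPKM + 1), si-circCpsf6 minus si-NC, for the 34 genes described above and 5 lists of other synaptic genes, with the median of each as a black bar. The 2 red points past the adjusted test are Dlg3 at 1.49 and Eps15 at 0.99, and the medians lie between -0.04 and 0.24.

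An earlier search of these libraries had found the heptamer GCAGAAT to be frequent in the 3' untranslated regions (3' UTRs) of genes that fell. That frequency was not checked here. The longest annotated 3' UTR of each gene was searched if at least 50 bases long (GENCODE M21, GRCm38, sense strand). The heptamer stood in 1189 of the 10668 tested genes searched (11.1%) and in none of the 34 genes here. Their median 3' UTR length was 2159 bases, against 1352 bases for all searched. In the longest coding sequence the heptamer stood in 3 of the 34 genes, against 14.4% of all tested genes with a coding sequence. These 3 stretches are shown because they are the only matches found, with the heptamer in capitals.
Syn2 (chromosome 6, plus strand, across an exon junction): tggaacagGCAGAATtctcagag
Snap29 (chr16:17419417-17419439, plus strand): ccacctgaGCAGAATggcagcat
Shank2 (chromosome 7, plus strand, across an exon junction): gatagacaGCAGAATctttctat
The log2 fold changes of these genes were -0.50 for Syn2, 0.07 for Snap29 and 0.26 for Shank2, and none passed the test. A match is a description of the letters, and draws nothing on what binds there.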

How the data were processed

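The authors deposited 1 table with an FPKM value per gene and library, rounded to 2 decimals, and with the authors' own fold change as a ratio, its log2, p-values and q-values (all per the file headers). How FPKM were computed, which test gave the p-values and how strand was handled is stated in no source used here. Bowtie 0.12.2, mm8 and mm9 appear in the submitters' processing notes with no role attached, and the labels' protocols name a small RNA kit for these libraries.

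Sample titles gave the groups and replicate numbers. The 12974 genes that averaged 1 FPKM or more were fitted together on log2(FPKM + 1) with limma 3.58.1 (R 4.3.3), using a group term and an intensity trend. P-values were adjusted by Benjamini-Hochberg over all of them with a threshold of 0.05. The fold changes are on that log2 scale, which understates changes of low genes. Pearson correlations across tested genes, which are not independent, were 0.936 to 0.971 within groups and 0.919 to 0.949 between groups.

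The genes and lists were chosen with earlier results of these data known. Named genes are Cpsf6, all members, of each other list up to 3 genes past the test or else the 2 with the smallest p, and the 2 highest markers of a cell type. Dlg2 is an exception to this rule, picked out after its values were seen. Other markers are named where listed at 0, and 1 marker is not reported here. Of the identifiers, 55144 were found in GENCODE M21 (GRCm38), which gave positions, overlaps and sequences. Alternatives were another pseudocount (0.1), other filters, median centring, quantile normalization, no trend, a replicate term, protein-coding genes alone, the authors' q-values and leaving out each library. Python 3.11.15 with pandas 2.3.3 and matplotlib 3.10.9 was used for tables and figures.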

Additional observations from a re-analysis of the deposited data

How the results depend on the processing

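Of 469 member fold changes under an alternative, 449 kept their direction and their side of the threshold, 6 were calls of Dlg3 lost and 14 changed sign, all of them in uncalled genes with a library left out. With each library left out in turn the log2 fold change ran from -0.021 to 0.309 for Shank1, -0.283 to 0.01 for Cplx1, -0.039 to 0.166 for Snap29, -0.119 to 0.007 for Syp, -0.115 to 0.041 for Rims2, -0.074 to 0.049 for Dlg1, -0.185 to 0.236 for Snap47 and -0.092 to 0.084 for Bsn. Of the members, 0 to 1 were called with a library left out, 3 by the q-values of the authors' deposited table, 0 over all genes with any value (limma, 9 at an unadjusted p under 0.05) and 0 with a mean of at least 5 FPKM (limma, 5 at an unadjusted p under 0.05), a filter that leaves Dlg3 out. Of all tested genes, 219 were called, 3 to 87 with a library left out, 13 with no filter, 437 among protein-coding genes alone and 715 by the q-values of the authors' deposited table. Of the other synaptic genes, 1 was called, 0 to 1 with a library left out, 2 with a mean of at least 5 FPKM, with median centring or without the trend, 4 with quantile normalization, 5 among protein-coding genes and 6 by the authors' q-values. The alternatives for the named genes of those lists were added after the data were seen. Except where the filter removes Dlg3, the cause was not tested.

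With the replicate number as a block, limma called 0 members (10 at an unadjusted p under 0.05), 0 of the other synaptic genes (29 at an unadjusted p under 0.05) and 11 of all tested genes. The adjusted p was 0.0541 for Dlg3 and 0.0562 for Eps15. Deviations from the group means correlated across genes at 0.103, 0.129 and 0.084 for replicates 1, 2 and 3, so not every pair passed 0.1 and the numbers were not taken to pair the libraries. Every library did correlate best with its own number, a hint from the data and not from the design.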

Other observations

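The column that marks significant genes in the authors' deposited table lists Dlg3, Cplx2 and Shank3 among the 48 genes, at fold changes of 3.83, 2.11 and 0.36. Sv2c, at a fold change of 0.59 and a q-value of 0.02 in the authors' deposited table, is not marked. Shank3 has a q-value of 0.18 in the authors' deposited table, from libraries that all read at or under 0.22 FPKM.

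Napb and Snap47 varied more with the replicate number than with the group. Napb read 8.43 and 13.9 FPKM in replicate 3 of si-NC and si-circCpsf6 and 3.19 to 5.23 FPKM in the other 4 libraries, while Snap47 read 21.89 and 19.0 FPKM in replicate 3 and 31.31 to 34.27 FPKM in the others. At each replicate number Napb was higher in si-circCpsf6, at 4.92 against 3.19, 5.23 against 3.19 and 13.9 against 8.43 FPKM. Its limma adjusted p was 0.509 in the main fit and 0.106 with the replicate number as a block. Snap47 was higher in si-circCpsf6 at replicates 1 and 2 and lower at replicate 3. Both were singled out after their values were seen.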
